A study of Mus musculus with 6 samples.

Results

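The 9 genes described here encode the chains of adult hemoglobin and enzymes that make heme: the alpha-globin genes Hba-a1 and Hba-a2, the beta-globin genes Hbb-bs and Hbb-bt, and the heme synthesis genes Alas1, Alas2, Alad, Urod and Fech. They were chosen by name. All 9 were present among the 15454 genes of the deposited count table and all 9 passed the filter on low counts, which left 12411 genes for testing. The RNA came from livers of male wild-type C57BL/6 mice aged 8 to 10 weeks, in which blood flow to 75% of the liver had been interrupted at body temperature and then restored (I/R). Of the 6 mice, 3 had received vehicle (I/R) and 3 ginsenoside Rk2, a ginseng saponin (I/R+Rk2), in each case 2 days before surgery and once more as reperfusion began. Libraries were prepared from 250 ng of RNA with a kit from MGI, and sham-operated mice were not part of the libraries analysed here.

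Hemoglobin is built from alpha and beta chains, each of which holds a heme group. Its genes are transcribed in erythroid precursors, and young red cells keep globin RNA after they have lost the nucleus, so RNA from whole liver can hold globin transcripts carried by blood. Heme itself is made in most cells by a chain of enzymes that starts with 5-aminolevulinate synthase, encoded by Alas1 in the liver and most other tissues and by Alas2 in erythroid cells. Hepatic Alas1 is the rate-limiting step and is repressed by heme, and much of the heme made in hepatocytes is built into cytochrome P450 enzymes. Comparing both synthases with the globins and with the shared later enzymes therefore sets erythroid transcripts beside hepatic heme synthesis.

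Total counts per library ran from 16809613 to 35618074, and 3 counts stood for 0.0888 to 0.184 CPM (counts per 1000000 of the TMM-scaled library size). The TMM factors ran from 0.914 to 0.976 with Rk2 and from 1.01 to 1.14 with vehicle. The labels number the mice but do not state separate operation days or batches.

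Transcripts of all 4 globin genes and of Alas2, Alad, Urod and Fech were higher in the livers of Rk2-treated mice, and Alas1 was lower. All 9 genes had an adjusted p below 0.05 by edgeR's quasi-likelihood test, 8 higher and 1 lower, against 43.9% of all genes tested (20.3% higher and 23.7% lower). With a fold change above 2 required as well, 4 of the 9 passed (Hba-a1, Hba-a2 and Hbb-bt higher, Alas1 lower), against 14.6% of all genes (3.17% higher and 11.4% lower). Of the 9 genes, 2 passed both limits without I/R replicate 1, and 1 passed them with the trend on transcript length removed. In CPM, the livers of the groups did not overlap for any of the 9, 8 being higher and 1 lower. The same held for 57.4% of all genes (27.1% higher and 30.3% lower). In RNA from whole tissue, a change in the number of cells of a type and a change in RNA per cell cannot be told apart.

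**Figure D1:**
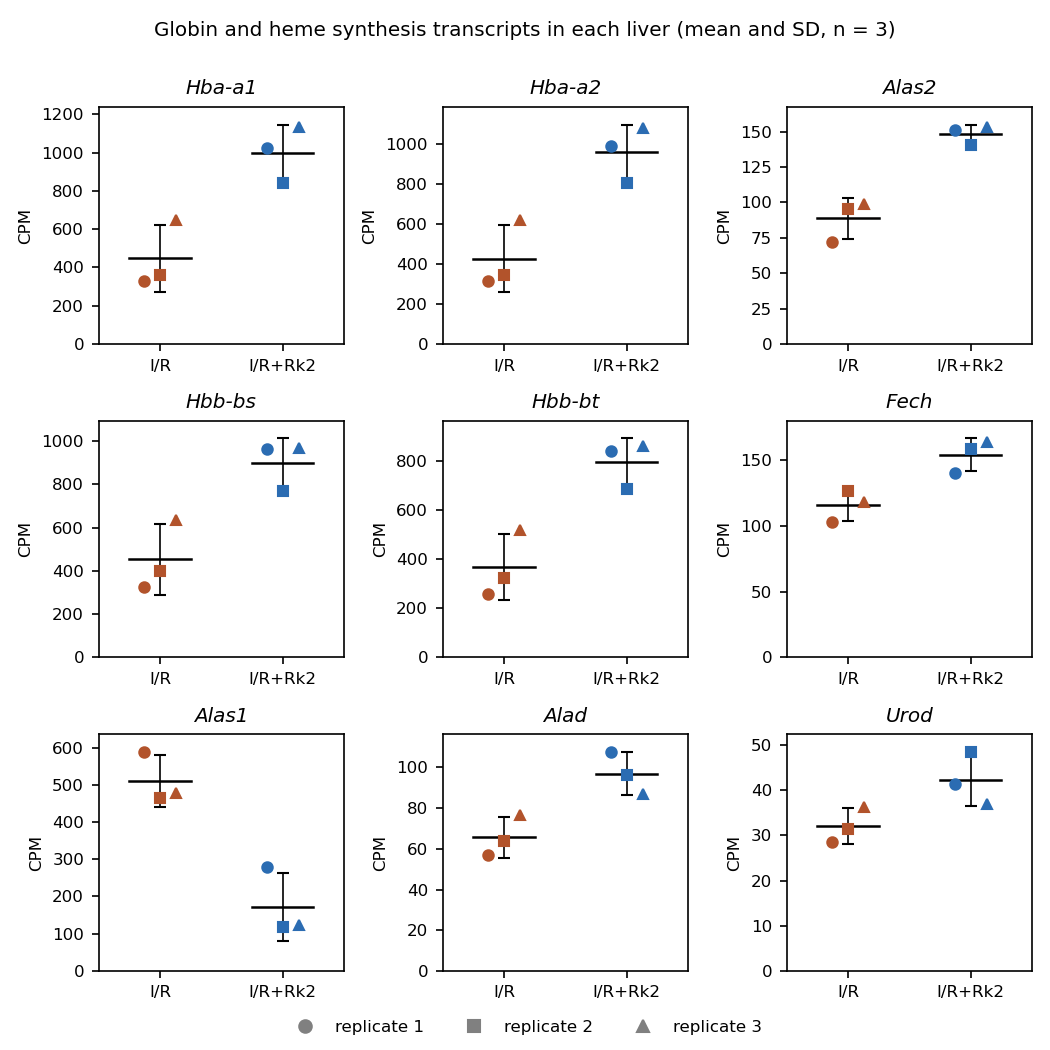
CPM of each of the 9 genes in the 3 I/R livers and the 3 I/R+Rk2 livers, with 1 symbol per liver (circle, square and triangle for replicates 1 to 3), a line at the mean and a bar of 1 SD; every axis starts at 0. The groups do not overlap in any panel, Alas1 is the gene with the lower level after Rk2, and I/R replicate 3 holds the highest globin levels of its group.

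Hba-a1 (chr11:32283511-32284465 on the plus strand, GRCm38) encodes alpha-globin. Its level was 331, 362 and 648 CPM in I/R replicates 1 to 3 and 1027, 842 and 1132 CPM in I/R+Rk2 replicates 1 to 3. The highest I/R liver stayed below the lowest I/R+Rk2 liver, and I/R replicate 3 lay well above the other two of its group. Hba-a1 rose 2.24-fold, a log2 change of 1.16 (SE 0.26, n = 3 per group, edgeR adjusted p = 0.0116). Hba-a2 (chr11:32296489-32297298, plus strand) carries the second copy of the alpha-globin gene. It measured 313, 346 and 618 CPM with vehicle and 990, 806 and 1079 CPM with Rk2. The livers kept the same order as for Hba-a1, and the log2 fold change was 1.17 (SE 0.27, edgeR adjusted p = 0.0114).

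The beta-globin genes lie on chromosome 7 and followed the alpha genes liver by liver. Hbb-bs (chr7:103826534-103828096, minus strand) was at 326, 397 and 637 CPM with vehicle and at 964, 770 and 969 CPM with Rk2. It rose by a log2 change of 0.99 (SE 0.25, edgeR adjusted p = 0.0159), a fold of 1.99 and so just under the limit of 2. Without I/R replicate 2 its log2 change was 0.90 (edgeR adjusted p = 0.0539). Hbb-bt (chr7:103812524-103813996, minus strand) was at 258, 324 and 517 CPM with vehicle and at 841, 683 and 860 CPM with Rk2. Its log2 fold change was 1.12 (SE 0.25, edgeR adjusted p = 0.0109). The spread was wider in I/R than with Rk2 for each globin gene: the coefficient of variation was 35.9% to 39.3% with vehicle and 12.2% to 14.7% with Rk2.

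The copies of each chain are nearly identical, which limits how far their rows can be read apart. The coding regions of Hba-a1 and Hba-a2 (429 bases) differ at 1 base in GENCODE M21, C381T, and those of Hbb-bs and Hbb-bt (444 bases) at 1 base, C417T, with positions counted from the A of the start codon and the base of the gene named first given first. The stretches around these positions are shown because the base in capitals is the only difference between the copies within the coding region.
Hba-a1: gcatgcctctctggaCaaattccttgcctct
Hba-a2: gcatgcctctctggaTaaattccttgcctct
Hbb-bs: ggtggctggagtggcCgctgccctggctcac
Hbb-bt: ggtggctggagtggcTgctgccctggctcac
Of the 100-base windows of the transcript, 56.5% of those of Hba-a1 occur in Hba-a2 and 62.6% of those of Hbb-bs occur in Hbb-bt, whereas 0 windows of 50 bases are shared between Hba-a1 and Hbb-bs or between Alas1 and Alas2. How reads that match both copies were divided is not stated, so the values of the separate copies are uncertain and the sums are the firmer measure.

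Summed over its copies, alpha-globin was at 644, 708 and 1266 CPM with vehicle and at 2017, 1648 and 2211 CPM with Rk2. Beta-globin was at 584, 721 and 1154 CPM with vehicle and at 1804, 1453 and 1829 CPM with Rk2. When the copies were added before the fit, the log2 fold change was 1.17 for alpha (SE 0.27, edgeR adjusted p = 0.0119) and 1.05 for beta (SE 0.25, edgeR adjusted p = 0.0137). The 4 genes together averaged 1693 ± 638 CPM with vehicle and 3654 ± 491 CPM with Rk2 (SD, n = 3), and the groups did not overlap. Taken from the group means of log2 values, the difference in this sum was 2.24-fold. An exact two-sided permutation test of that sum gave p = 0.1, the smallest value that 3 livers against 3 allow, and its adjusted value over the 17 sums and ratios tested was 0.121.

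As a share of all counts, the globins held 0.140% (95% Wilson interval 0.139 to 0.142), 0.146% (0.145 to 0.148) and 0.245% (0.243 to 0.247) in I/R. The share was 0.373% (0.370 to 0.375), 0.294% (0.292 to 0.296) and 0.369% (0.367 to 0.372) with Rk2. These intervals cover counting error only, and the spread among livers of a group went beyond them. The exception was I/R+Rk2 replicates 1 and 3, whose intervals overlapped. I/R replicates 1 and 2 lay close together, but their intervals did not overlap.

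The ratios between chains and copies were far steadier than the levels. The alpha to beta ratio in CPM was 1.10, 0.982 and 1.10 with vehicle and 1.12, 1.13 and 1.21 with Rk2. The groups did not overlap, by a log2 difference of 0.12 (exact permutation p = 0.1, the smallest possible; 0.121 after adjustment). The Hba-a1 to Hba-a2 ratio of counts was 1.06, 1.04 and 1.05 with vehicle and 1.04, 1.04 and 1.05 with Rk2, and the groups overlapped (exact permutation p = 0.3). The Hbb-bs to Hbb-bt ratio of counts was 1.26, 1.23 and 1.23 with vehicle and 1.15, 1.13 and 1.13 with Rk2, so Hbb-bs led in every liver and by less after Rk2 (exact permutation p = 0.1). Much of each transcript is shared between the copies, and the part that read assignment plays in this ratio was not tested.

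Other globin genes, apart from Cygb, were at or near the limit of detection. Hba-x, Hbb-bh1, Hbb-bh2, Hbb-y and Mb, which encode embryonic globins and myoglobin, were listed at 0 in every library. Hbq1a had 4 counts in I/R replicate 3 and 0 in the other libraries, and Hbq1b had 2 and 3 counts in I/R+Rk2 replicates 2 and 3 and 0 elsewhere. Cygb, the cytoglobin of stellate cells and fibroblasts, was at 5.76 ± 0.20 CPM with vehicle and 5.70 ± 1.04 CPM with Rk2 (SD, n = 3), a log2 change of -0.02 (edgeR adjusted p = 0.922).

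The sequences just before the transcription starts are printed for globin genes and for both synthases because these genes separate into the groups that rose and fell. Each run holds the 250 bases upstream of the RefSeq start, 5′ to 3′ on the strand of the gene, in GRCm38.p6: Hba-a1 at chr11:32283422-32283671 on the plus strand, Hbb-bs at chr7:103827929-103828178 on the minus strand, Hbb-bt at chr7:103813924-103814173 on the minus strand, Alas2 at chrX:150547167-150547416 on the plus strand and Alas1 at chr9:106247955-106248204 on the minus strand. Capitals mark matches to 4 motifs searched on both strands. The GATA box was searched as GATAA with an A or a T before it, and with the last A also allowed to be a G. The other motifs, the CACCC box, the CCAAT box and the TATAA box, were searched by the letters of their names. GENCODE M21 places the 5′ end of Alas1 upstream of the printed window and those of the other genes within it. The whole Alas1 window and part of each other window are thus annotated there as gene.
Hba-a1: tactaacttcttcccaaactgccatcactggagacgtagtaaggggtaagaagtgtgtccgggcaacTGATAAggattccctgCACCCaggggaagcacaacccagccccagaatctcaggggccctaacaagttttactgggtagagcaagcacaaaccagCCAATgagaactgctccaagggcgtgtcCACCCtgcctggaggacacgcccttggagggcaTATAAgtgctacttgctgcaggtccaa
Hbb-bs: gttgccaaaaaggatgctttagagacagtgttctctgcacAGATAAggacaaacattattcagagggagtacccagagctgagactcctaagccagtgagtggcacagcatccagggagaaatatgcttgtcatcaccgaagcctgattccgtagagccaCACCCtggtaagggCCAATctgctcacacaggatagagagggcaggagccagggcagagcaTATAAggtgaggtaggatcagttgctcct
Hbb-bt: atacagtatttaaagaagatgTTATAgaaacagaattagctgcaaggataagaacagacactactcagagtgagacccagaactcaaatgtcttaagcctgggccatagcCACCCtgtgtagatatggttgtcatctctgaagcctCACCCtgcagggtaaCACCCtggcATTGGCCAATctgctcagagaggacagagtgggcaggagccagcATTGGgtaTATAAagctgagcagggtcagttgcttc
Alas2: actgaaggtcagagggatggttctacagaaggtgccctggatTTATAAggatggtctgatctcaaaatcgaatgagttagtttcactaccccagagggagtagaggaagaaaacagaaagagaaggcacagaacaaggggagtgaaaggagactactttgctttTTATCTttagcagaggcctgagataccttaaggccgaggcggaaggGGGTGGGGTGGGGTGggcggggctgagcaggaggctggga
Alas1: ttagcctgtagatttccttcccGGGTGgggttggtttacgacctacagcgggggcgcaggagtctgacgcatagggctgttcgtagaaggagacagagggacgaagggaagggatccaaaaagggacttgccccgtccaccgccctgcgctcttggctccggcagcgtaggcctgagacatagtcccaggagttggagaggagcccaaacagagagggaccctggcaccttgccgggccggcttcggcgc
A GATA box, the motif read by erythroid GATA factors among others, was found 183 bases before the start of Hba-a1, 186 before that of Hba-a2, 210 before that of Hbb-bs and 86 before that of Alas2. It was not found in these windows of Hbb-bt, Alad or Urod, nor at either RefSeq start of Alas1, and 26.5% of the 32851 mouse promoters in the table hold it. TATAA lay 27 to 30 bases before the start of all 4 globin genes and CCAAT 75 to 91 bases before it, and these motifs occur in 22.8% and 33.8% of promoters. CACCC, present in 52% of promoters, occurred in the 4 globin genes, in Alas2, in Alas1 and at a RefSeq start of Alad. In Alas2, 3 matches on the opposite strand stand side by side. CCAAT was also found upstream of Alad and Urod, and TATAA upstream of Alas2. The promoter windows of Hba-a1 and Hba-a2 were identical at 98.8% of positions, and those of Hbb-bs and Hbb-bt at 74%. CACGTG, an E box held by 6.02% of promoters, was found upstream of Alad and Urod. These matches describe the letters alone.

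Alas1 (chr9:106233455-106248654, minus strand), the hepatic synthase, moved opposite to the other 8 genes. Its level was 589, 464 and 478 CPM with vehicle and 278, 117 and 123 CPM with Rk2. Every I/R liver lay above every I/R+Rk2 liver, and I/R+Rk2 replicate 1 stood well above the other two of its group. Alas1 fell 2.95-fold, with a log2 change of -1.56 (SE 0.34, n = 3 per group, edgeR adjusted p = 0.00949). With I/R+Rk2 replicate 1 left out, the fitted log2 change was -2.09 (edgeR adjusted p = 0.000356).

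Alas2 (chrX:150547375-150570638, plus strand), the erythroid synthase, was at 72.0, 95.3 and 98.7 CPM with vehicle and at 151, 141 and 153 CPM with Rk2. The I/R+Rk2 livers lay close together, with a coefficient of variation of 4.53%. Alas2 rose 1.67-fold, a log2 change of 0.74 (SE 0.13, edgeR adjusted p = 0.00427). The globin sum divided by Alas2 in CPM was 17.1, 15.0 and 24.5 with vehicle and 25.3, 22.1 and 26.4 with Rk2, and here the groups overlapped (exact permutation p = 0.2).

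On the FPKM scale, which corrects for transcript length and so allows genes to be compared, Alas1 stood at 347, 240 and 235 with vehicle and at 139, 62.7 and 65.3 with Rk2. Alas2 stood at 40.3, 45.9 and 49.2 FPKM with vehicle and at 72.9, 65.5 and 69.4 FPKM with Rk2. Alas1 thus exceeded Alas2 in every I/R liver and in I/R+Rk2 replicate 1, while Alas2 was slightly the higher in the other two I/R+Rk2 livers. The Alas2 share of the sum of both was 10.4%, 16.1% and 17.3% with vehicle and 34.5%, 51.1% and 51.5% with Rk2 (exact permutation p = 0.1, the smallest possible). The sum of both averaged 319 ± 58.9 FPKM with vehicle and 158 ± 46.4 FPKM with Rk2 (SD, n = 3, exact permutation p = 0.1).

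**Figure D2:**
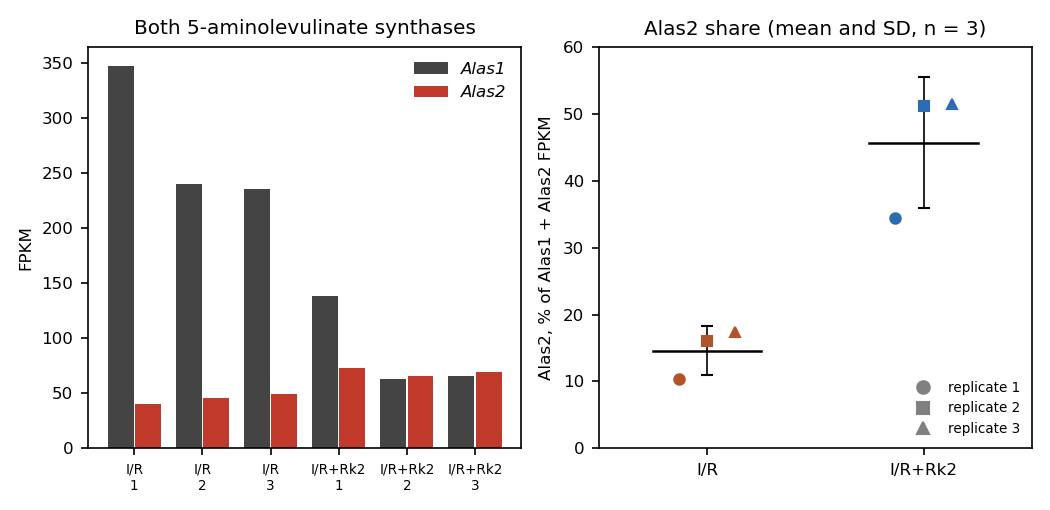
Left, FPKM of Alas1 (dark bars) and Alas2 (red bars) in each liver, on an axis from 0; right, the Alas2 percentage of their sum, with 1 symbol per liver, a line at the mean and a bar of 1 SD (n = 3). The share lies between 10.4% and 17.3% in the I/R livers and between 34.5% and 51.5% in the I/R+Rk2 livers.

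The later enzymes are shared by hepatocytes and erythroid cells, and those among the 9 genes rose modestly. Alad, which joins 2 molecules of aminolevulinate to porphobilinogen, was at 57.0, 63.6 and 76.6 CPM with vehicle and at 108, 96.2 and 86.9 CPM with Rk2 (log2 difference of 0.56, SE 0.13, edgeR adjusted p = 0.0141). Urod, uroporphyrinogen decarboxylase, was at 28.5, 31.4 and 36.3 CPM with vehicle and at 41.4, 48.6 and 37.0 CPM with Rk2. Its log2 fold change of 0.40 (SE 0.14) was close to the limit (edgeR adjusted p = 0.0469), and I/R replicate 3 and I/R+Rk2 replicate 3 nearly touched. Fech, ferrochelatase, which inserts iron into protoporphyrin, was at 103, 127 and 119 CPM with vehicle and at 140, 159 and 164 CPM with Rk2 (log2 difference of 0.41, SE 0.11, edgeR adjusted p = 0.0200). Urod lost its call without I/R replicate 1 or 2 or I/R+Rk2 replicate 1 or 2 (log2 change 0.29 to 0.41, edgeR adjusted p from 0.0768 to 0.153), and Fech lost it without I/R replicate 1 or 3 or I/R+Rk2 replicate 2 or 3 (0.34 to 0.42, edgeR adjusted p from 0.0569 to 0.0640). Scaled by library size alone, Urod and Fech did not pass either (edgeR adjusted p = 0.187 and 0.0690). In FPKM, Urod and Fech missed the limit in all 3 limma fits (adjusted p from 0.466 to 0.520 and from 0.0546 to 0.0733), and Alad missed it in 2 of them (0.0503 and 0.0665) and passed in the other (0.0485).

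Of the 9 enzymes of the whole pathway, 6 rose, 1 fell and 2 did not pass the test, where 20.3% of all genes tested rose and 23.7% fell. The median log2 fold change of the enzymes was 0.41 against -0.01 over all genes tested. Cpox, coproporphyrinogen oxidase, rose most among the enzymes, from 64.0 ± 7.82 to 120 ± 13.2 CPM (log2 difference of 0.90, edgeR adjusted p = 0.00182). Uros, uroporphyrinogen III synthase, rose by a log2 change of 0.49 (edgeR adjusted p = 0.0227). Ppox, protoporphyrinogen oxidase, had a log2 change of 0.34 without passing (edgeR adjusted p = 0.165), and its groups overlapped. The ratio of Alas1 to Fech in CPM, the first step of the pathway over its last, was 5.74, 3.66 and 4.03 with vehicle and 1.99, 0.738 and 0.751 with Rk2.

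**Figure D3:**
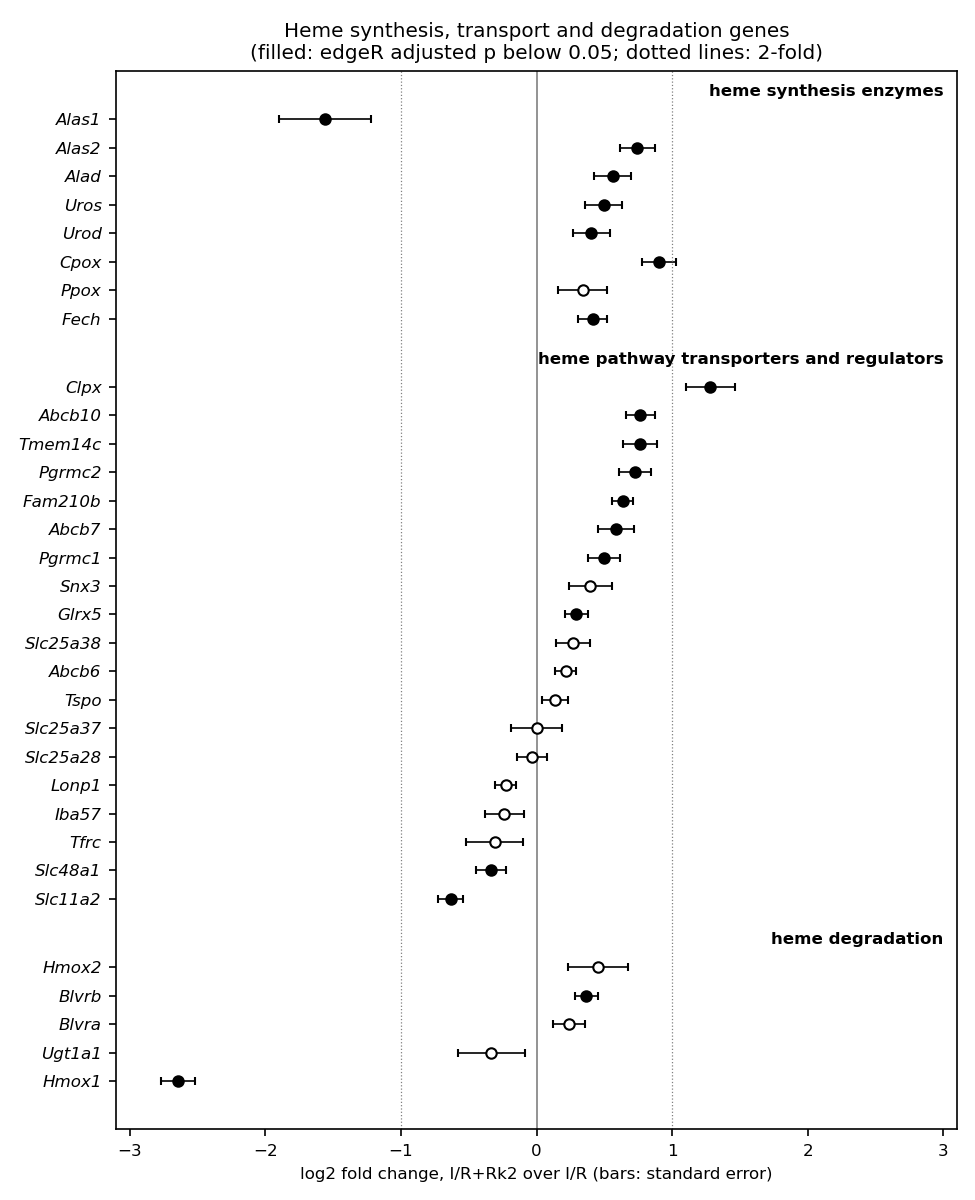
Log2 fold change of I/R+Rk2 over I/R for heme synthesis enzymes in pathway order, the heme pathway transporters and regulators, and the heme degradation genes, with bars of 1 standard error; filled points have an edgeR adjusted p below 0.05 and dotted lines mark 2-fold. Alas1 at -1.56 and Hmox1 at -2.65 lie far to the left, and Clpx at 1.28 is the highest point.

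Of 21 transporters and regulators of the pathway, 19 were tested, of which 8 rose and 2 fell (median log2 fold change 0.27). Over all genes tested, 20.3% rose and 23.7% fell. In either direction 43.9% passed, a share not far from that of this list. Clpx, a mitochondrial chaperone that acts on aminolevulinate synthase, rose from 92.9 ± 10.6 to 226 ± 51.5 CPM (log2 difference of 1.28, edgeR adjusted p = 0.00202). Abcb10, a mitochondrial transporter needed for heme synthesis, rose by 0.76 on the log2 scale (edgeR adjusted p = 0.00191), and Fam210b by 0.64 (edgeR adjusted p = 0.00123). Pgrmc1, a heme-binding protein that partners ferrochelatase, rose by 0.49 on the log2 scale (edgeR adjusted p = 0.0141). The mitochondrial protease Lonp1 had a log2 change of -0.23 (edgeR adjusted p = 0.0514), and the mitochondrial iron importer Slc25a37 was at 43.5 ± 3.62 CPM with vehicle and 43.4 ± 11.5 CPM with Rk2 (SD, n = 3, edgeR adjusted p = 0.9999).

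Of 14 genes known to regulate Alas1, 5 rose, 3 fell and 6 did not pass the test, against 20.3% rising and 23.7% falling among all genes tested, so that the falling share was near the background. Nr1h4, the bile acid receptor FXR, rose by 0.94 on the log2 scale (edgeR adjusted p = 0.000501), and the clock gene Arntl rose from 6.73 ± 1.81 to 23.7 ± 3.35 CPM (log2 difference of 1.81, edgeR adjusted p = 0.00104). Bach1, a repressor that heme inactivates, fell from 104 ± 13.7 to 38.1 ± 5.38 CPM (log2 difference of -1.44, edgeR adjusted p = 0.000640). Hnf4a, a hepatocyte transcription factor, fell by 0.52 on the log2 scale (edgeR adjusted p = 0.00583), and the clock repressor Nr1d1 rose by 0.37 (edgeR adjusted p = 0.0305).

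Among the 5 genes of heme degradation, Hmox1, the inducible heme oxygenase and a target of BACH1, fell from 293 ± 24.4 to 46.8 ± 6.12 CPM (log2 difference of -2.65, edgeR adjusted p = 0.000197). Blvrb, a biliverdin reductase, rose by 0.37 on the log2 scale (edgeR adjusted p = 0.0130), while Hmox2 (0.45), Blvra (0.24) and Ugt1a1 (-0.34) did not pass the test. Of 6 genes for scavenging of hemoglobin and heme, Hp, which encodes haptoglobin, fell by 0.75 on the log2 scale and Cd163, its macrophage receptor, fell by 1.38 (edgeR adjusted p = 0.0375 and 0.00357). Alb, which encodes the heme-binding plasma protein albumin, rose by 0.70 on the log2 scale (edgeR adjusted p = 0.0167), and Hpx (-0.34), Lrp1 (0.06) and Ambp (0.05) did not pass. Of 18 liver hemoproteins, 10 rose and 0 fell by edgeR (median log2 fold change 0.38), beside 20.3% and 23.7% of all genes. The smallest p-values among them were those of Cyp8b1, at 1.76 on the log2 scale, Cyb5b at 0.79 and Cat at 0.78, while Cyp2e1 was at -0.01 and Cyp3a11 at 0.25 without passing.

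Red-cell markers were examined to place the globins. Of 35 erythroid markers, 25 were in the count table and 17 were tested, of which 8 rose and 2 fell (median log2 fold change 0.29), and Alas2 and Fech are among the 8. The shares over all genes tested were 20.3% higher and 23.7% lower. Bpgm, the bisphosphoglycerate mutase of red cells, rose from 12.3 ± 0.10 to 25.3 ± 1.32 CPM (log2 difference of 1.04, edgeR adjusted p = 0.000497). Tspan33 rose by 0.71 on the log2 scale (edgeR adjusted p = 0.00290). Bpgm, Tspan33 and Fech belong to 10 of these markers that other cells also express. Of those 10, 5 rose and 0 fell, so most of the 8 rises are not specific to red cells.

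The erythroid transcription factors did not move together. Klf1 rose by 0.81 on the log2 scale, with 16 to 68 counts per library (edgeR adjusted p = 0.0489), whereas Nfe2 fell by 1.51 and Tal1 by 0.87 (edgeR adjusted p = 0.00303 and 0.0334); these were chosen after their values were seen. Several other genes of the list, likewise chosen with their values known, had few or no counts. Gata1, Gfi1b, Ank1, Kel, Rhag, Rhd, Trim58 and Cldn13 were listed at 0 in every library. Slc4a1, the band 3 anion exchanger of the red-cell membrane, had 0 counts in each I/R library and 5, 8 and 18 counts after Rk2, whereas Ermap, an erythroid membrane protein, had 2, 4 and 3 counts with vehicle and 0 in each I/R+Rk2 library. Sptb, of the membrane skeleton, had 9 to 27 counts per library (edgeR adjusted p = 0.455). The red-cell membrane gene Xk, also chosen with its values known, was not near 0. Its level was 5.78, 6.98 and 7.29 CPM with vehicle and 5.63, 4.53 and 5.22 CPM with Rk2. Its groups did not overlap, and its log2 change of -0.39 did not pass (edgeR adjusted p = 0.0824).

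Lists of markers of other cells changed in different directions. Their counts stand beside 20.3% of all genes tested that rose and 23.7% that fell. All 12 neutrophil markers that were tested fell or did not pass (10 fell). The summed level of the list was 1112 to 1429 CPM with vehicle and 142 to 290 CPM with Rk2. Lcn2 was the largest part of that sum with vehicle, at 633 CPM on average, and was at 48.8 CPM with Rk2. All 10 monocyte markers fell (median log2 fold change -4.10). The monocyte sum, 1678 to 1991 CPM with vehicle and 1131 to 1190 CPM with Rk2, consisted mostly of Fn1, at 1609 and 1149 CPM on average, a gene that hepatocytes also express. Of 13 hepatocyte markers tested, 7 rose and 0 fell by edgeR, with sums of 72980 to 84080 CPM with vehicle and 108000 to 134100 CPM with Rk2. Alb made up most of these sums, at 49210 CPM on average with vehicle and 80090 CPM with Rk2. The globin sum relative to Alb overlapped between the groups (exact permutation p = 0.2). Platelets circulate with red cells, and of 7 platelet markers tested 1 (Ppbp) rose and 0 fell (median log2 fold change 0.46). The summed level of the platelet list was low, at 8.60 to 14.5 CPM with vehicle and 12.8 to 17.7 CPM with Rk2. The part of these markers in the globin difference was not tested.

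**Figure D4:**
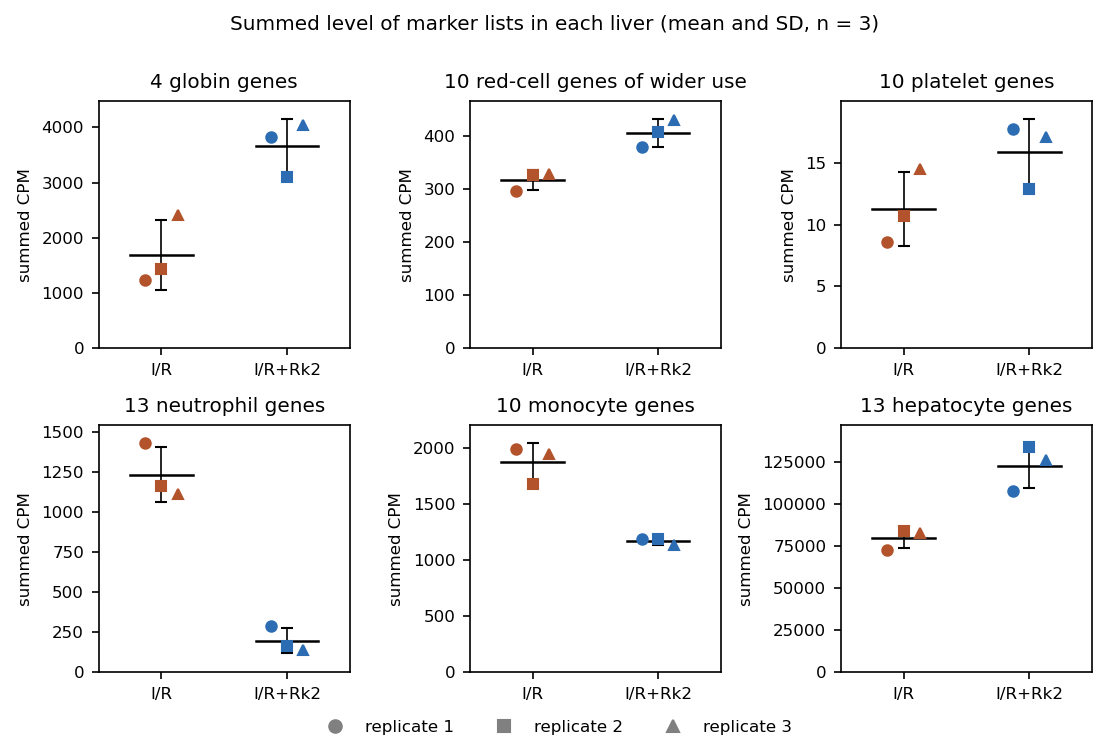
Summed CPM per liver of the 4 globin genes, 10 red-cell genes also expressed by other cells (Fech among them), and lists of platelet, neutrophil, monocyte and hepatocyte genes, with a line at the mean and a bar of 1 SD (n = 3); every axis starts at 0. The sums of globin genes, of these 10 shared genes and of hepatocyte genes are higher in I/R+Rk2. Neutrophil and monocyte sums are lower, the platelet sums overlap, and Fn1 makes up most of the monocyte sum. Fech is the largest single part of the sum of shared genes, at 116 CPM on average with vehicle and 154 CPM with Rk2.

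The remaining lists were mixed, and the same 20.3% rising and 23.7% falling over all genes apply to them. Of 11 Kupffer cell markers, 2 fell (median log2 fold change -0.49), of 9 endothelial markers 4 rose and 3 fell (median 0.30), of 8 stellate cell markers 2 fell (median -0.12) and of 6 cholangiocyte markers 3 fell (median -0.77). The falling share of the Kupffer cell list was below that of all genes and that of the stellate cell list close to it. None of 11 B and T cell markers could be tested, since 0 passed the filter.

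In FPKM, the 9 genes kept nearly the same order in all livers. Hba-a2 led in all livers but I/R replicate 2, where Hbb-bs did, with Hbb-bt the lowest globin in each liver. In CPM, Hba-a1 was instead above Hba-a2 in every liver. The order of the copies thus depends on the scale, and their separate values are uncertain. Hba-a2 averaged 755 ± 266 FPKM with vehicle and 1536 ± 213 with Rk2, and Hbb-bs 722 ± 230 and 1303 ± 169 FPKM, so that these neighbours did not differ beyond their spread in I/R. Alas1 was the fifth in every I/R liver at 274 ± 63.2 FPKM. In I/R+Rk2 replicates 2 and 3 it lay within a few FPKM of Alas2 and Alad. Urod was the lowest of the 9 in every liver, at 29.8 ± 2.02 FPKM with vehicle and 31.7 ± 1.52 FPKM with Rk2, a difference smaller than the spread. Unlike in CPM, its groups overlapped in FPKM, at 27.8 to 31.9 with vehicle and 30.1 to 33.2 with Rk2.

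Across the 6 livers, the 4 globins were correlated with each other at Pearson's r between 0.9947 and 0.9999 in log2(CPM + 1), and with Alas2 at 0.941 to 0.963. Alas1 was correlated with Fech at -0.951 and with Alas2 at -0.856. These coefficients are descriptions over 6 points that include the difference between the groups and share library depth and scaling. Of 9163 genes with a mean of at least 100 counts, those closest to the globin sum were Gm20390, Romo1, Mkrn2, Rexo2 and Naa10 (r between 0.9799 and 0.9895). Those closest to Alas1 were Zfp335, Rcan1, Ctnnal1, Gga3 and Ncbp1 (r between 0.9936 and 0.9977).

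Short transcripts were higher with Rk2 in general: the 341 tested genes with under 1000 exon bases, to which all 4 globin genes belong, had a median log2 fold change of 0.32, and the 5154 with over 5000 had -0.16. With this trend on length removed, all 4 globins stayed higher and Alas1 lower at adjusted p below 0.05, but 1 of the 9 genes (Alas1) passed the fold limit, with Hba-a1 at 0.90 and Hbb-bt at 0.84 on the log2 scale. Scaling by library size alone moved the median over all genes to -0.17, and the globins remained higher and Alas1 lower relative to it. Alas1 overlaps 4930500F10Rik and Alas2 overlaps Apex2 on the opposite strand, and reads of such partners cannot be told apart unless strand was used, which is not stated. Apex2 was at 4.34 to 9.20 CPM in all livers, far below Alas2.

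**Figure D5:**
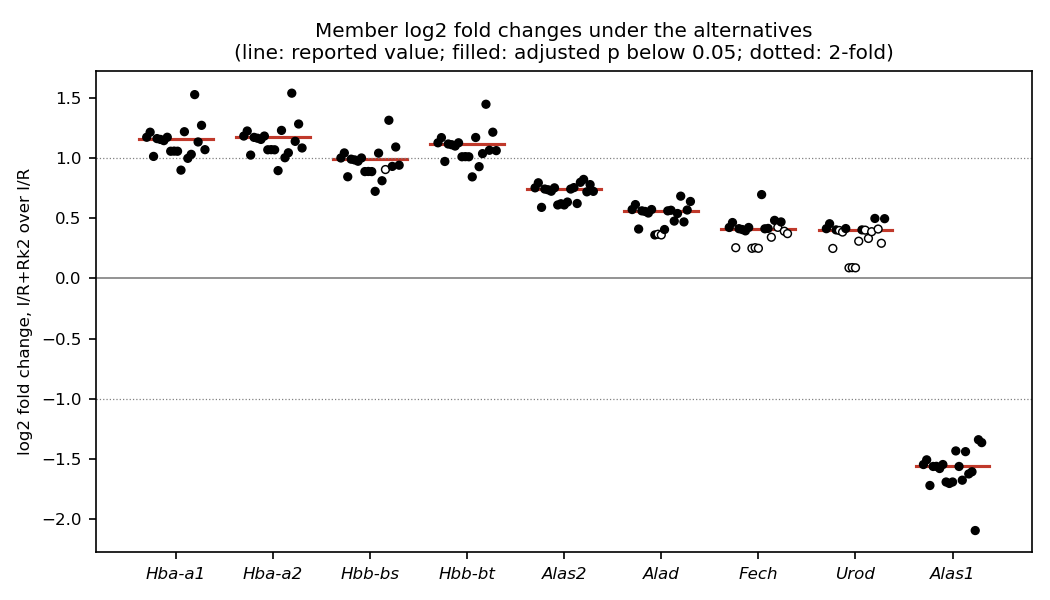
Log2 fold change (I/R+Rk2 over I/R) of each of the 9 genes under 18 or 19 other scalings, filters, tools, length and pairing choices and left-out livers (points, filled where the adjusted p was below 0.05), with the reported value as a red line and dotted lines at 2-fold. No point changes side of 0, and open points occur for Hbb-bs, Alad, Fech and Urod.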

How the data were processed

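RNA sequencing of 6 livers was analysed, 3 from I/R and 3 from I/R+Rk2 mice, grouped by their labels. Per the labels, the authors used FastQC 0.11.5, HISAT2 2.2.1 and StringTie 1.3.3 with genome build mm10. They deposited whole-number counts per gene (15454 genes), and a table of FPKM (21948 genes), normalised for transcript length and depth. The annotation, the strand setting and the counting step are not given in the sources used here.

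Counts were fitted in R 4.3.3 with edgeR 4.0.16 (filterByExpr, TMM scaling, quasi-likelihood test, Benjamini-Hochberg adjustment over 12411 genes). The threshold was an adjusted p below 0.05 and, where stated, a fold above 2. CPM are counts per 1000000 of the TMM-scaled library, and positive log2 fold changes mean higher levels with Rk2. Sums and ratios were compared with exact two-sided permutation tests (scipy 1.17.1). Libraries held 16809613 to 35618074 counts, and intervals and floors cover counting error only. The labels do not say whether the livers differ in operation or sequencing batch, so p-values measure the spread between these livers. No pair of libraries of a group agreed within sampling noise.

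Gene positions and transcripts were read from GENCODE M21 (GRCm38), and promoters from RefSeq (GRCm38.p6). No promoter is shown for Fech. The 9 genes and the gene lists were chosen with earlier results of these data known. Genes named are all 9 genes, all heme synthesis enzymes, all members of lists with at most 6 tested members, otherwise a selection from the 3 with the smallest p and the 3 with the highest mean CPM of a list, the 5 most like the globin sum or Alas1, and genes that overlap Alas1 or Alas2. A few genes picked out by this rule are not reported, but the fits and list counts include them. Where others are named, the text says that they were picked with their values known. Alternatives were other scalings and filters, DESeq2 1.42.0, limma 3.58.1 on log2(FPKM + 1) or log2(FPKM + 0.1), removal of a trend on transcript length, a replicate block and each liver left out.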

Additional observations from a re-analysis of the deposited data

How the results depend on the processing

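Directions held for all 9 genes in 167 values recomputed under the alternatives, of which 144 kept their side of adjusted p 0.05 and 23 lost it (12 for Urod, 8 for Fech, 2 for Alad and 1 for Hbb-bs). The log2 fold change of Hba-a1 ran from 0.90 to 1.53, that of Hbb-bs from 0.72 to 1.31, that of Alas2 from 0.59 to 0.82 and that of Alas1 from -2.09 to -1.34. Urod was at 0.09 in FPKM (limma adjusted p = 0.520), and the cause was not tested. Of the 9 genes, 1 passed the threshold with the length trend removed. Leaving out each liver gave 2 to 5 genes past the threshold, the lowest without I/R replicate 1, and 7 to 8 below adjusted p 0.05. Adding the globin copies before the edgeR fit gave adjusted p-values of 0.0119 for alpha (1.17 on the log2 scale) and 0.0137 for beta (1.05), where the permutation test of the sums cannot go below 0.1. Same-numbered livers of the groups deviated with correlations of -0.03, 0.05 and -0.02, and differently numbered livers with -0.06 to 0.08. No pairing by number was seen, but so few values cannot exclude one. A fit with the number as a replicate block called 1690 genes past the threshold against 1813, and of the 9 genes 5 passed it and 8 were below adjusted p 0.05. With at least 546 counts for each of the 9 genes in each library, counting error is small beside the spread between livers.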
